A study of Homo sapiens with 4 samples.

Results

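The 10 genes described here encode proteins that detect foreign or misplaced nucleic acid in the cytosol or the endosome and pass that signal toward the interferon genes. They are DDX58 (RIG-I), IFIH1 (MDA5), DHX58 (LGP2), TLR3, IFI16, MAVS, TICAM1 (TRIF), TMEM173 (STING), TBK1 and IKBKE. They were chosen by gene symbol and carried 14 probes, among the 34127 probes for 27193 gene names on the array. Gene expression was measured in MCF10A.B2 cells, a derivative of the human mammary epithelial line MCF10A that expresses a form of ErbB2 (Her2) which a synthetic crosslinker can activate. Control cells were compared with MCF10A.B2 cells stably carrying a Tet inducible shRNA against PAK1, a serine/threonine kinase activated by the small GTPases Rac and Cdc42, with 2 one-color Agilent arrays per group. Cells of both groups were serum starved for 3 h and given the crosslinker AP1510 for 15 min, so that every array shows cells given this treatment. Activation of ErbB2 itself was not measured here. The controls are labelled only as Ctrl or wild type, and the sources used here do not state whether they received the inducer. Arrays of cells with a non-targeting shRNA were not analysed here, so the carriage of an shRNA and the lower PAK1 level cannot be told apart. The labels name a cell line, while the series text speaks of cells derived from 2 tumors per group. Whether the 2 arrays of a group came from separate cultures is therefore uncertain, and the p-values measure only the spread between these arrays.

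RIG-I and MDA5 are helicases that bind double-stranded or otherwise unusual RNA in the cytosol and then engage MAVS on the mitochondrial surface, whereas TLR3 binds double-stranded RNA in the endosome and signals through TRIF. DNA in the cytosol is sensed by cGAS, whose cyclic dinucleotide product activates STING, and IFI16 can also bind DNA and act on STING. These routes meet at the kinases TBK1 and IKK epsilon, which phosphorylate the transcription factors IRF3 and IRF7 and so lead to transcription of type I and type III interferon genes. In epithelial cells several of the sensors are themselves interferon-stimulated genes, kept low at rest.

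Values below are normalized log2 intensities, on which a difference of 1 unit is a 2-fold change, and a level is compared only between arrays for the same probe. Between 78.9% and 83.2% of probes stood well above background on each array, and the arrays of a group correlated with r = 0.9978 for control and 0.9981 for PAK1 shRNA over 27487 probes. PAK1 itself read 11.19 and 11.27 in control cells against 10.44 and 10.51 in shRNA cells. It was thus 1.69-fold lower in the shRNA cells (log2 fold change -0.76, SE 0.08, adjusted p = 0.000184, limma with Benjamini-Hochberg adjustment over all genes). All 6 basal epithelial markers examined (KRT5, KRT14, KRT17, TP63, CDH3 and LAMB3) were well above background on all 4 arrays, with 4 lower and 2 higher in the shRNA cells. The calls for LAMB3 and for the leukocyte gene CD14 rest on 1 shRNA array, the other spot being dropped for its background. The summed linear level of the list, with flagged spots kept, was 391000 to 438000 on the control arrays and 526000 to 560000 on the shRNA arrays, where LAMB3 and CDH3 were higher while KRT5, KRT14, KRT17 and TP63 were lower. Such sums add probes of unlike brightness and follow the brightest. Among markers of other cell types, all 4 leukocyte genes on the array were well above background, with 1 (CD14) higher, and their sum, nearly all of it CD14, was 18600 to 19500 in control and 45200 to 48900 in shRNA cells. Of 4 fibroblast markers, 3 were higher (LUM, DCN and COL1A1; sums of 3900 to 4640 against 7790 to 7980) and PDGFRA was on no array well above background. Of the 3 plasmacytoid dendritic cell markers, CLEC4C was on no array well above background, IL3RA was called lower and LILRA4 was not called. The list's sum was 465 to 475 in control and 376 to 405 in shRNA cells. In RNA from a whole culture, more cells of a kind and more RNA per cell cannot be told apart, and the part of other cell types in the results below was not tested.

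Expression of 9 of the 10 sensing genes was higher in the PAK1 shRNA cells, each by more than 2-fold, and the probe that stands for MAVS was slightly lower. Over the whole array 30.6% of the 21990 genes tested were called higher and 32% lower at an adjusted p under 0.05, with 8.8% called higher and 9.09% lower by at least 2-fold. The median log2 fold change was 2.23 for the 10 genes and 0.02 for all genes tested. All 10 were well above background on all 4 arrays, so none entered the comparison through 1 group only, and none was saturated. For the 9 higher genes both shRNA arrays stood above both control arrays, an arrangement seen for 42% of all genes, and the reverse arrangement held for 40.1%. The 3 cytosolic RNA helicases showed the largest differences of the 10, each above 16-fold, a size reached by 0.473% of the genes tested.

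**Figure D1:**
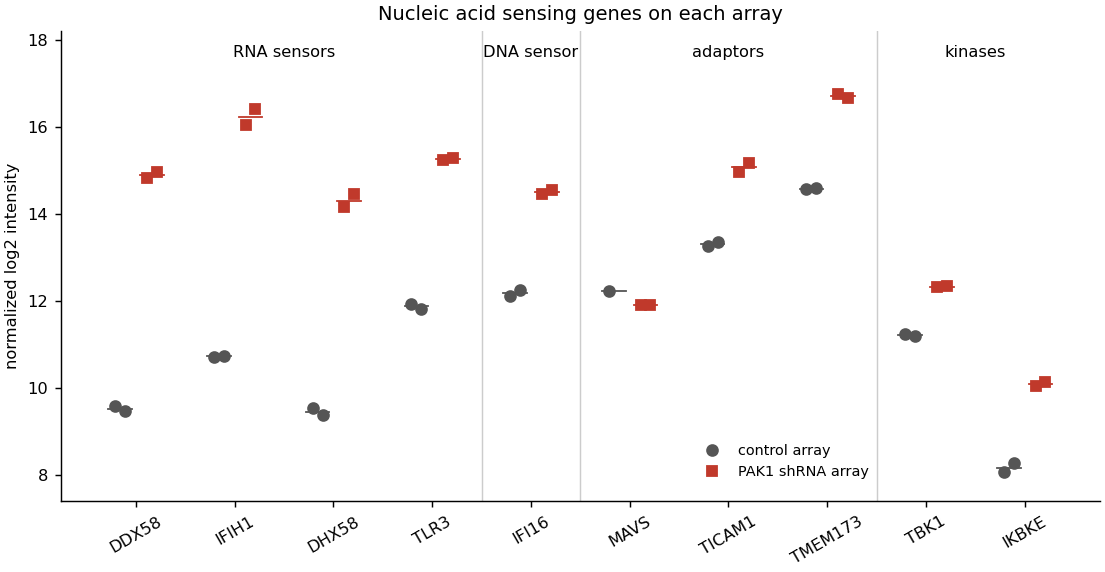
Normalized log2 intensity (vertical axis) of each sensing gene on the 2 control arrays (grey circles) and the 2 PAK1 shRNA arrays (red squares), with group means as short lines and genes ordered by role. The groups are widest apart for DDX58, IFIH1 and DHX58, with control values of 9.37 to 10.74 and shRNA values of 14.15 to 16.42, and MAVS has 1 control value because the other spot was dropped.

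Among the RIG-I-like receptors, DDX58 (RIG-I), which recognizes short double-stranded RNA with a 5′ triphosphate, read 9.59 and 9.48 in control cells and 14.83 and 14.96 in shRNA cells. The arrays of each group lay close together and far from those of the other group. This is a 41.1-fold higher level in the shRNA cells (log2 fold change 5.36, SE 0.09, adjusted p = 3.15e-07 by limma), the 44th highest change of 21990 genes. IFIH1 (MDA5), the receptor for long double-stranded RNA, read 10.71 and 10.74 in control and 16.04 and 16.42 in shRNA cells. Both shRNA arrays were again far above both controls, with the wider spread within the shRNA pair. The difference was 45.4-fold (5.50, SE 0.13, adjusted p = 6.28e-07), 40th of all genes. DHX58 (LGP2), which lacks the signalling domains of the other two helicases and modulates them, read 9.54 and 9.37 in control and 14.15 and 14.47 in shRNA cells. It was 28.9-fold higher without overlap (4.86, SE 0.12, adjusted p = 8.3e-07), 58th of all genes.

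IFIH1 and DDX58 did not differ in the size of their change beyond error (difference of 0.14 in log2, 0.94 of the combined SE). DHX58 was below DDX58 by 0.51, or 3.39 combined SE. The combined SE here and below covers only the spread between arrays at 1 probe per gene. Differences in response between probes lie outside it. The DDX58 change was read by a pair of probes of 60 bases, at chr9:32455398-32455457 and chr9:32455728-32455787 of hg19 on the minus strand. The second of these read 8.61 and 8.70 in control and 14.49 and 14.60 in shRNA cells. Its log2 fold change was 5.89 against 5.36 at the first, in the same direction. The probes of this gene thus lay about as far apart as DDX58 and DHX58 did. The single probes for IFIH1 and DHX58 lie at chr2:163128806-163128865 and chr17:40253459-40253518, both on the minus strand of hg19.

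The promoters of DDX58 and IFIH1 are shown because these are the sensing genes with the largest changes and both hold the motif searched. RefSeq sequences (GRCh38.p14, 250 bases before to 50 after the start of a gene) were found for 8 of the 10 genes, with 9 promoters in all, and DHX58 and TMEM173 had no entry in the table used. Both strands were searched for the word GAAA repeated after a gap of 2 bases, the core of the interferon-stimulated response element, and after a gap of 1 base. The motif was picked after the sequences and the array values had been seen. A pair with a gap of 2 bases occurred in 3.57% of 35116 promoters of this length, a pair with a gap of 1 base in 3.12%, and either in 6.4%. Such a pair was present in 4 of the 8 genes (DDX58, IFIH1, TLR3 and IFI16) and was not found in these windows of MAVS, TICAM1, TBK1 or IKBKE. The matches are descriptions of the letters and do not show that a factor binds.

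In DDX58 the pair has a gap of 1 base and lies at positions -203 to -195, counted from the first transcribed base as position 1. In IFIH1 there were 3 pairs with a gap of 2 bases, at -159 to -150 and -153 to -144 on the reverse strand, which overlap, and at -21 to -12 on the forward strand. The stretches are given 5′ to 3′ along the genes, which both lie on the minus strand, with the motif letters in capitals (TTTC where the pair is on the reverse strand).
DDX58 chr9:32526361-32526429: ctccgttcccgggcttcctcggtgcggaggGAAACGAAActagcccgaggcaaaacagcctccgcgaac
IFIH1 chr2:162318798-162318873: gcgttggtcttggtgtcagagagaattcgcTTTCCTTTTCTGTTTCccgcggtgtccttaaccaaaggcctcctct
IFIH1 chr2:162318685-162318735: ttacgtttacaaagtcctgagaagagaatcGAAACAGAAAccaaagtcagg

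TLR3, the endosomal receptor for double-stranded RNA, read 11.94 and 11.82 in control cells and 15.25 and 15.30 in shRNA cells. The groups did not overlap and each pair of arrays lay close together. TLR3 was 10.5-fold higher in the shRNA cells (log2 fold change 3.39, SE 0.08, adjusted p = 6.34e-07), the 174th highest change of all genes, and its change was below that of DHX58 by 1.46 in log2 or 10.03 combined SE. Its probe lies at chr4:187005890-187005949 on the plus strand of hg19. The TLR3 promoter is shown for its GAAA pair separated by 2 bases, on the reverse strand at positions -4 to 6, across the annotated start.
TLR3 chr4:186069122-186069161: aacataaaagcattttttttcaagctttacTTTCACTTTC

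IFI16, a nuclear and cytosolic DNA-binding protein of the PYHIN family, read 12.11 and 12.24 in control and 14.46 and 14.55 in PAK1 shRNA cells. Both shRNA arrays were above both controls by more than 2 units. The gene was 5.02-fold higher (log2 fold change 2.33, SE 0.08, adjusted p = 2.68e-06), 437th of all genes and 1.07 in log2 or 9.28 combined SE below TLR3. It was read by a single probe at chr1:159024619-159024678 on the plus strand of hg19. IFI16 has a pair of RefSeq promoters, and a GAAA pair separated by 1 base lies in the second of them at positions -54 to -46, shown here in capitals.
IFI16 chr1:159009823-159009891: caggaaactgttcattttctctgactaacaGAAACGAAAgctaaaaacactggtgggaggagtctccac

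The adaptors did not change alike. TMEM173 (STING), the endoplasmic reticulum adaptor that cyclic dinucleotides activate, read 14.57 and 14.60 in control and 16.76 and 16.67 in PAK1 shRNA cells. The 4 values fell into a low and a high pair with little spread in either. TMEM173 was 4.38-fold higher (log2 fold change 2.13, SE 0.07, adjusted p = 2.36e-06), 530th of all genes. Its change was below that of IFI16 by 0.20, or 1.75 combined SE. TICAM1 (TRIF), the adaptor of TLR3, read 13.26 and 13.35 in control and 14.97 and 15.18 in shRNA cells, again with no overlap. It was 3.41-fold higher (1.77, SE 0.10, adjusted p = 1.24e-05), 767th of all genes. The second TICAM1 probe read 8.81 and 9.03 in control and 10.17 and 10.32 in shRNA cells, a log2 fold change of 1.32 in the same direction. The probes of TICAM1 lie at chr19:4815995-4816054 and chr19:4816636-4816695 and that of TMEM173 at chr5:138855597-138855656, all on the minus strand of hg19.

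MAVS, the mitochondrial adaptor on which RIG-I and MDA5 converge, was the exception among the 10, and its probes gave opposite directions. The probe with the highest mean, at chr20:3847884-3847943 on the plus strand of hg19, read 12.23 on the first control array and 11.92 on each shRNA array, and its spot on the second control array was dropped for a flagged local background. Both shRNA arrays lay a little below the single control value. The probe was 1.24-fold lower (log2 fold change -0.31, SE 0.09, adjusted p = 0.0316 by limma over genes, on the assumption that the lone control value varies like the others), and 32% of all genes were called lower. With the flagged spot kept the second control array read 12.11 and the log2 fold change was -0.25. The probe at chr20:3835323-3835382 read 9.65 and 9.87 in control and 10.65 and 10.61 in shRNA cells, with no overlap. It was higher by 0.87 in log2 (adjusted p = 0.000169 by limma over the 27487 probes tested). The probe at chr20:3856703-3856762 read 11.13 on the second control array, the first being dropped, and 11.64 and 11.59 in shRNA cells, a log2 fold change of 0.48 (adjusted p = 0.00569) that was 0.42 with the flagged spot kept. With each probe tested apart, 30.8% of all probes were called higher and 32.7% lower. MAVS transcripts thus had 1 probe lower and the others higher. The mean over the probes was higher by 0.67, but it did not compare like with like. It took all probes on the shRNA arrays, while each control array lacked its dropped spot, a different probe on each. Probe brightness therefore enters that value, and nothing is read from it. No direction is given here for the gene as a whole.

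**Figure D2:**
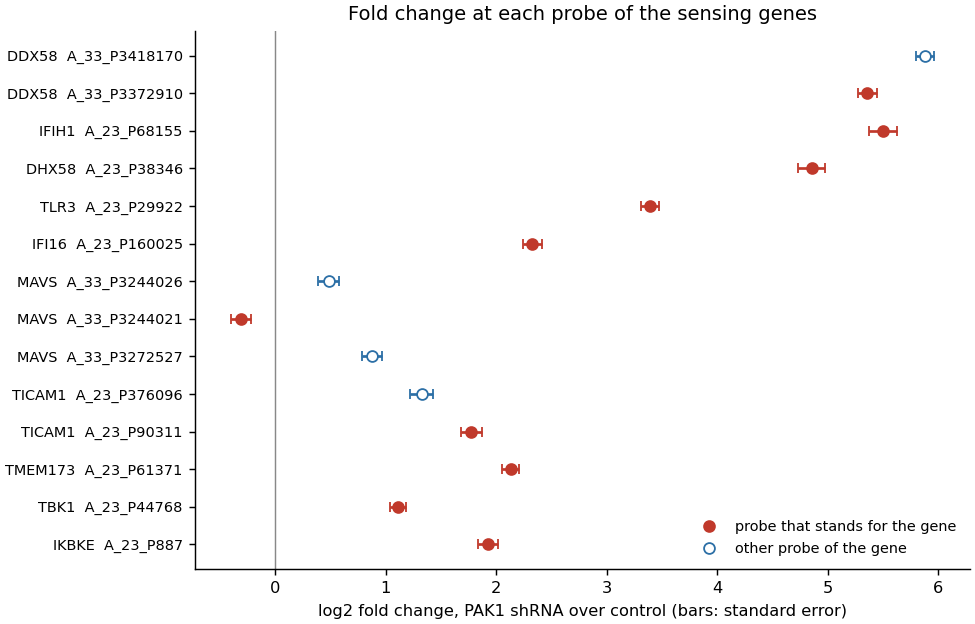
Log2 fold change, PAK1 shRNA over control (horizontal axis), at each of the 14 probes of the sensing genes, with the standard error as bars; filled red points are the probes that stand for a gene and open blue points are its other probes. The probe pairs of DDX58 (5.36 and 5.89) and TICAM1 (1.77 and 1.32) lie on the same side of zero, whereas those of MAVS lie on both sides (-0.31, 0.48 and 0.87).

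The kinases changed less than the receptors. TBK1, which phosphorylates IRF3 and is expressed in most cells, read 11.24 and 11.20 in control and 12.31 and 12.35 in PAK1 shRNA cells. The spread within each pair was far smaller than the distance between them. TBK1 was 2.16-fold higher (log2 fold change 1.11, SE 0.07, adjusted p = 2.62e-05), 1682nd of all genes and the smallest of the 9 increases. IKBKE, which encodes the related and inducible kinase IKK epsilon, read 8.08 and 8.27 in control and 10.05 and 10.14 in shRNA cells. Both shRNA arrays were above both controls. IKBKE was 3.79-fold higher (1.92, SE 0.09, adjusted p = 7.54e-06), 648th of all genes. The TBK1 probe lies at chr12:64895443-64895502, and the IKBKE probe spans chr1:206664160-206665008, or 849 bases for a 60-base probe, so that it crosses an intron. Both lie on the plus strand of hg19.

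Ordered by the size of the change, the genes ran IFIH1, DDX58, DHX58, TLR3, IFI16, TMEM173, IKBKE, TICAM1, TBK1 and MAVS. The steps from TMEM173 to IKBKE (0.21, 1.78 combined SE) and from IKBKE to TICAM1 (0.15, 1.14 combined SE) were small against their error, like that from IFI16 to TMEM173. TICAM1 and TBK1 were apart by 0.66, or 5.52 combined SE, but the second TICAM1 probe, at 1.32, lay nearer to TBK1 (1.11). The IFI16, TMEM173, IKBKE and TICAM1 changes thus formed a run, below TLR3 and above TBK1, in which no neighbours differed by 2 combined SE. Its ends, IFI16 (2.33) and TICAM1 (1.77), lay further apart than any neighbours, so the changes in the run are not taken as equal. Across the alternative ways of processing the arrays these 9 genes kept an increase past the threshold in all 189 values computed, and the widest ranges of the log2 fold change were 1.40 to 2.24 for IKBKE and 4.96 to 5.62 for DDX58.

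**Figure D3:**
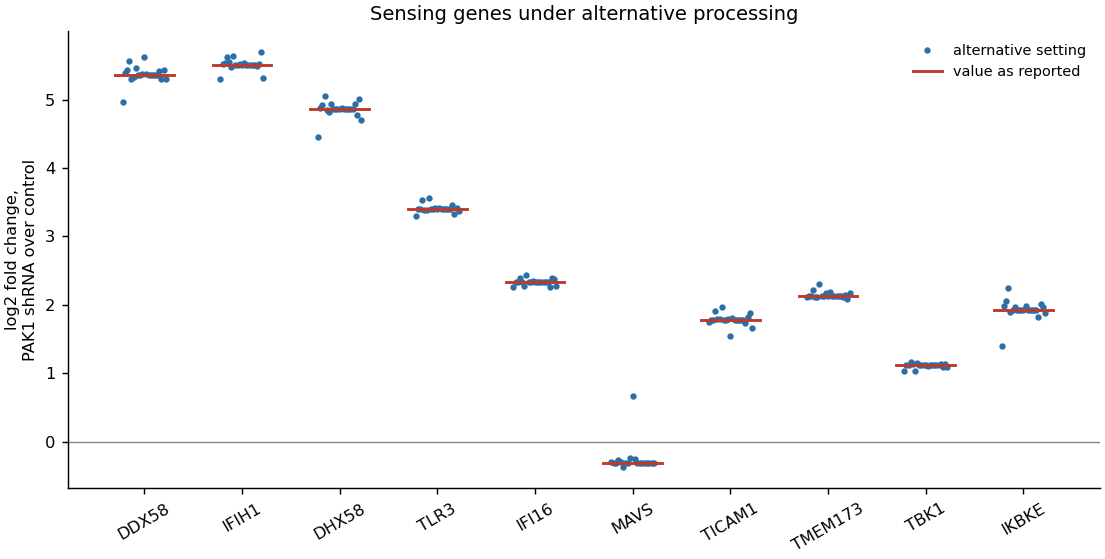
Log2 fold change, PAK1 shRNA over control (vertical axis), of each sensing gene as reported (red line) and under each alternative way of processing or testing the arrays (blue points). The 9 higher genes stay above zero under all of them, from 1.03 for TBK1 to 5.69 for IFIH1, while MAVS runs from -0.38 to 0.67. The highest MAVS value is a mean over probes that were not the same on all arrays.

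Of 62 further genes listed by their role in these routes, 61 were on the array under a matching name and 58 were tested. Of these, 30 were higher, 17 were lower and 11 did not pass the test. The median log2 fold change was 0.26, and 18 were higher and 6 lower by at least 2-fold. The higher counts include ZBP1 and PYHIN1, which entered the test only through the shRNA arrays. With genes well above background on all arrays, 28 were higher and 17 lower. Over all genes 30.6% were called higher and 32% lower, or 8.8% and 9.09% by at least 2-fold, so the counts of lower genes were near those of the array as a whole.

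Among 15 partners of the RNA receptors, 6 were higher, 6 lower and 3 not called, with a median of 0.04. Beside the array-wide 30.6% and 32%, nothing is read from these counts. DDX60, a helicase that assists RIG-I-like receptors, was higher by 4.20 in log2, and both shRNA arrays (13.92 and 14.13) were above both controls (9.84 and 9.81). ZC3HAV1 (ZAP), which binds CpG-rich viral RNA, was higher by 2.62 at one probe and 4.95 at the other. TRIM25, a ubiquitin ligase known to act on RIG-I, was higher by 2.11. RNF125, a ubiquitin ligase that marks RIG-I and MDA5 for degradation, was lower by a log2 fold change of -1.74.

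Of 11 shared signalling genes, 10 were higher and FADD alone was lower (-0.22), with a median of 0.62. Array-wide, 30.6% of genes were called higher and 32% lower. FADD was not called under several alternatives, and the count of higher genes was 4 by a plain unpaired t-test after adjustment. IRF7, the inducible interferon regulatory factor that these kinases phosphorylate, read 11.34 and 11.11 in control and 17.54 on the 1 shRNA array whose spot was kept. Its log2 fold change was 6.31 (adjusted p = 1.56e-06, limma), a p that assumes the lone shRNA array varies like the others. IRF3, its constitutive relative, read 12.21 and 11.91 in control and 12.69 and 12.66 in shRNA cells, a difference of 0.62 (adjusted p = 0.00267) that its second probe also gave (0.61). TRADD, an adaptor recruited by MAVS, was higher by 1.45, and TANK, a scaffold of TBK1 and IKK epsilon, by 1.13. TRAF3, the ubiquitin ligase between MAVS or TRIF and TBK1, was higher by 0.26 (adjusted p = 0.0403), a call lost under 10 of its 21 alternatives.

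Of 7 genes of the endosomal Toll-like receptor route besides TLR3, 4 were tested. TLR7 and TLR8, receptors for single-stranded RNA, were not well above background on both arrays of either group, and TICAM2 had no probe under its name. MYD88, the adaptor of TLR7, TLR8 and TLR9, was higher by 3.09, and UNC93B1, the chaperone that brings these receptors and TLR3 to the endosome, by 2.61. TLR9, the receptor for CpG DNA, read 7.11 and 7.06 in control and 7.14 and 6.93 in shRNA cells, with overlapping groups (log2 fold change -0.05).

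On the DNA side, 6 of 10 genes tested were higher, 3 lower and 1 not called, with a median of 0.42. Array-wide, 30.6% were called higher and 32% lower. ZBP1 and PYHIN1 are among the 6 and entered the test only through the shRNA arrays. With genes well above background on all arrays, 4 were higher. CGAS, the enzyme that makes the ligand of STING, read 10.73 and 10.77 in control and 11.19 and 11.30 in shRNA cells. It was 1.42-fold higher without overlap (0.50, adjusted p = 0.00133, limma). AIM2, a PYHIN-family DNA sensor that assembles an inflammasome, was higher by 3.63, a value that ran from 2.37 with the background model fitted on all spots to 5.55 with the scanner's processed signal. ZBP1, a sensor of left-handed nucleic acid, and PYHIN1 were not well above background in control cells. With control values raised to at least the lowest signal well above background, ZBP1 was 6.68-fold higher in the shRNA cells (measured means 6.07 and 8.91). PYHIN1 was 4.45-fold higher (6.25 and 8.42). These folds are not lower limits, since a signal not well above background can exceed that value. They hold for the background correction used here only. The fitted log2 differences ran from 1.64 to 6.67 for ZBP1 and from 1.22 to 5.18 for PYHIN1 between the same alternatives. The other ZBP1 probe gave 1.72. The lower genes were MRE11, a double-strand break nuclease (-1.57), ENPP1, which hydrolyses the STING ligand (-1.31 at one probe and -2.06 at the other), and RNF5, a ubiquitin ligase of STING (-0.99).

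Of 8 nucleases and RNA-processing genes that limit the nucleic acid available to sensors, 4 were higher and 3 lower. Beside the array-wide 30.6% called higher and 32% lower, nothing is read from these counts. TREX1, the main cytosolic DNA exonuclease, was higher by 1.66, SAMHD1, which hydrolyses deoxynucleotides, by 1.49 at one probe and 2.97 at the other, and ADAR, which edits double-stranded RNA, by 1.39. RNASEH2A, the catalytic subunit of RNase H2, read 13.10 and 13.23 in control and 10.59 and 10.52 in shRNA cells, a log2 fold change of -2.61 with no overlap. The RNASEH2B subunit changed by -1.82, while RNASEH2C, at -0.27, was not called (adjusted p = 0.0542, limma). Of 10 subunits of RNA polymerase III, which can transcribe AT-rich cytosolic DNA into a RIG-I ligand, 2 were higher and 4 lower, with a median of -0.08, close to the array-wide 30.6% and 32%. Among them POLR3K changed by -1.76 and POLR3A by 0.66.

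**Figure D4:**
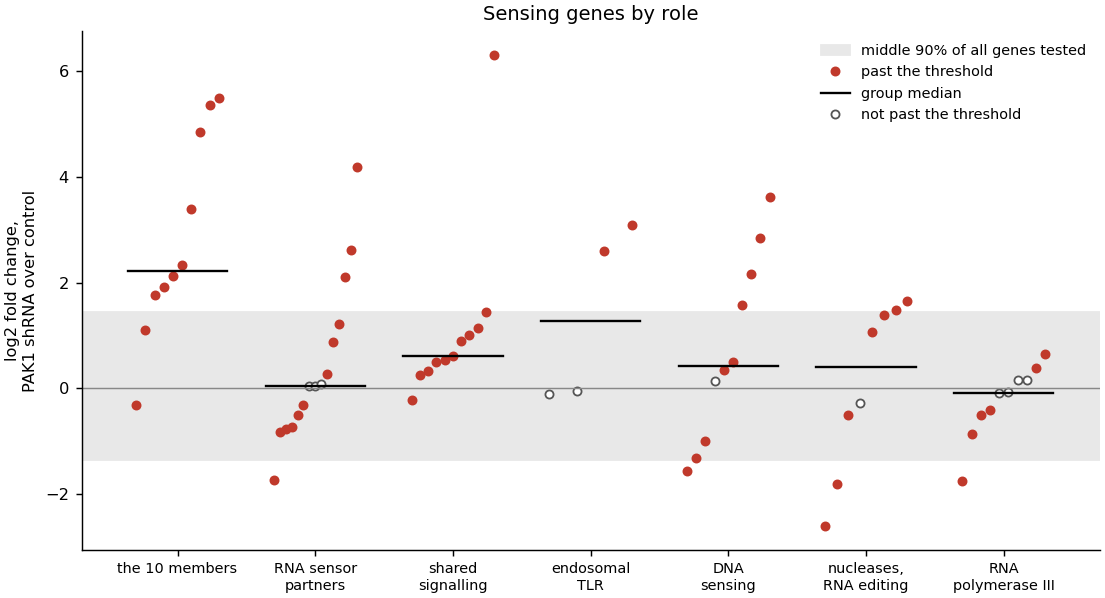
Log2 fold change, PAK1 shRNA over control (vertical axis), of each gene tested in the 10 sensing genes and in 6 groups of related genes; filled points passed the threshold, open points did not, black lines are group medians and the grey band runs from the 5th to the 95th percentile of all genes tested. The 10 genes have a median of 2.23, and the other groups run from -0.08 for RNA polymerase III to 1.28 for the endosomal route. In that route 4 genes were tested, among them the receptor TLR9 (-0.05).

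The 4 interferon genes examined at the end of these routes (IFNB1, IL28A, IL28B and IL29) were higher in the PAK1 shRNA cells. Array-wide, 30.6% of genes were called higher, and other interferon genes were not examined here. IFNB1 and IL28B entered the test only through the shRNA arrays, so the filter admitted them where they were high. IFNB1 read 6.35 and 6.34 in control, where 1 of the 2 arrays was well above background, and 11.07 and 11.71 in shRNA cells (log2 fold change 5.04, adjusted p = 3.31e-06, limma). Of the type III genes, IL28A was higher by 8.15 and IL29 by 7.81. IL28B was not well above background in control. With its control values raised to at least the lowest signal well above background, it was 122-fold higher (measured means 6.09 and 13.09). IL28A and IL28B are near-identical in sequence and their probes may share signal. The sizes of these changes depended on the background correction, with log2 differences from 3.55 to 7.31 for IFNB1 and from 5.29 to 11.63 for IL28B. The IL28B fold is thus not a lower limit and holds for the correction used here only.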

How the data were processed

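RNA of 4 samples was hybridised to 1-color Agilent arrays, all on 1 slide. The authors deposited the scanner output of each array, with intensity per spot from Agilent Feature Extraction 9.5.3.1 and probe coordinates on hg19, and a table of processed log2 values. For that table the scale (column medians 9.397 to 9.423) and its match to the arrays (r of at least 0.9995 with the values used here) were checked on the files, and its offset is not given in the sources used here. It served as an alternative.

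Mean signals were corrected for local background with normexp (offset 50), fitted per array on spots without a flagged background. Fitted on all spots, the normexp mean became -666 and -740 for control against -10.7 and -10.2 for shRNA arrays, where 8 and 18 spots of the control arrays but 0 of the others had a local background above 100. Control spots and 716 to 851 flagged spots per array of 43118 were left out. Values were quantile normalized and spots of a probe averaged. A probe was tested where either group had it well above background on each of its arrays, and a gene was read at its brightest such probe, which left 21990 genes. The comparison used limma (version 3.58.1, R 4.3.3), and p-values were adjusted over all genes by Benjamini-Hochberg with a threshold of 0.05. Where a gene was not well above background in 1 group, that group's values were raised to at least the array's lowest signal well above background. The fold from these values is not a strict lower limit. With 2 arrays per group an exact two-sided permutation test of 1 gene cannot go below p = 0.333, and the number of arrays limits the precision.

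Groups follow the sample titles. The 10 genes and all lists were chosen with earlier results of these data known, so none of them is independent evidence. Named besides the 10 genes were PAK1, the interferon genes, IRF3, IRF7, CGAS, TRAF3, TREX1 and the 3 largest called changes in each group, 1 of which is not reported here; ADAR, ENPP1, FADD, MRE11, RNASEH2C, RNF125, RNF5, SAMHD1 and TLR9 were added after their values were seen. In all, 3 listed genes were matched by an older symbol. Of the alternatives, testing each probe apart was chosen after seeing the data. The analysis code was tested on simulated data.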

Additional observations from a re-analysis of the deposited data

How the results depend on the processing

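The 9 sensing genes other than MAVS kept their direction and stayed past the threshold in all 189 values under the alternatives tried. Of 498 values for the other named genes 480 did so and 18 were not called, without changing direction. Among the 18 are 2 values of IRF7 by the plain t-test, where no p-value could be computed. MAVS reversed, to 0.67 in log2, with the mean over its probes. That mean took different probes on each control array because of dropped spots, so its size is not read. The count of sensing genes called lower was 1 as reported, which is MAVS, and 0 with the processed signal scaled to the 75th percentile (MAVS -0.27, adjusted p = 0.114, limma), with cyclic loess (where MAVS could not be fitted), with the mean over probes, with a plain unpaired t-test before or after adjustment (which needs 2 arrays a group), at an adjusted p under 0.01 and at a minimum of 2-fold. Leaving out 1 array at a time gave 0 to 1. Without either shRNA array MAVS had 1 value per group and no spread of its own (log2 fold change -0.31 in both fits), so its lost call is not read. MAVS could not be fitted without the first control array, the only one its probe had. The number of genes called higher over the array was 4179 and of genes called lower over the array 4553 by the plain t-test after adjustment, and 1936 and 1999 at a minimum of 2-fold, against 6721 and 7028 as reported. At that minimum, 18 other sensing genes were called higher and 6 lower, and PAK1 (-0.76) was not called. IRF3 was not called by the plain t-test, and that test could not be run for IRF7. The processed signal moved the median of all genes to 0.11 in log2.

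Same-numbered arrays of the groups did not deviate together (r = 0.00766 over 26303 probes), so no pairing by replicate number was visible. Whether samples were prepared in pairs cannot be told from this value. Blocking on that number left 6923 genes called higher over the array and 7123 genes called lower over the array. Of the sensing genes, 9 were higher and 0 lower. In this fit MAVS had as many coefficients as values and so no spread of its own, and its lost call is not read. No slide block could be fitted with all arrays on 1 slide.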
